A study of Mus musculus with 6 samples.

Results

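The CIS and SOCS genes are the 8 genes Cish and Socs1 to Socs7, taken by name. All 8 are among the 11242 entries of the gene-level table, and 7 of them were among the 12925 genes tested here. RNA was measured in naive CD4+ T cells from spleen and lymph nodes of C57BL/6 mice after 48 h under Th9 polarizing conditions, meaning anti-CD3 and anti-CD28 with IL-4, TGF-β and anti-IFN-γ. There were 3 WT samples, which the study describes as lacking Cre, and 3 samples from Cul5fl/fl CD4-Cre mice (Cul5 cKO). The paper names floxed (Cul5fl/fl) littermates without CD4-Cre as its general wild type controls. In Cul5 cKO mice Cre is driven by Cd4 regulatory sequence and acts from the thymus onward. The samples came from a single experiment, and the labels do not say whether each is a separate mouse, so p-values measure only the spread between these samples.

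CIS, the product of Cish, and SOCS1 to SOCS7 each carry an SH2 domain, which binds phosphorylated tyrosines, and a C-terminal SOCS box, which binds elongins B and C and can recruit Cullin 5 with its RING partner. Together these form a ubiquitin ligase (CRL5) in which the SOCS protein chooses the substrate. Cish, Socs1, Socs2 and Socs3 are classical feedback genes: cytokines acting through JAK kinases and STAT factors induce them, and their products then dampen the same receptors. The comparison asks whether the mRNA of this family differed in cells that lack the cullin it works with.

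The promoters of 2 of the feedback genes are shown because STAT factors are known to act on them. Each is the 250 bases before the RefSeq transcription start on GRCm38.p6, written 5′ to 3′ on the strand of the gene. Capitals mark a match to TTCNNNGAA, the STAT motif with a spacer of 3 bases, which reads the same on both strands. The Socs3 window, chr11:117969367-117969616 on the minus strand, lies inside the annotated gene, which spans positions 117966079 to 117970047. It overlaps an exon of the non-coding transcript Socs3-203. The Socs1 window, chr16:10785537-10785786 on the minus strand, overlaps no annotated exon.
Socs3: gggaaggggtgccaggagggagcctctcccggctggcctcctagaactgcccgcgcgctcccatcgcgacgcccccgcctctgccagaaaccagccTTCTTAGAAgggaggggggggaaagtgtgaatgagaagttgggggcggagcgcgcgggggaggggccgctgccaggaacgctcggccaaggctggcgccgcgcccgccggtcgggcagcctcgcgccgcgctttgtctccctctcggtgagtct
Socs1: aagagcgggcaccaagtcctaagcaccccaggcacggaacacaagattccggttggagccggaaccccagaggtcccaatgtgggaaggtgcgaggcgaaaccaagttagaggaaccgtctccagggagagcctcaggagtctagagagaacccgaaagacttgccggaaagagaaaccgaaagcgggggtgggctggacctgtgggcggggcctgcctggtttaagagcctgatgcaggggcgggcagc

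The Socs3 window held 1 match, whose first base lies 154 bases before the RefSeq start. The Socs1 window held none, and neither window held TTCNNNNGAA, the form with a spacer of 4 bases that STAT6 is known to bind. Of 32851 RefSeq promoter windows of this length, 7.02% held the first motif and 5.85% the second. RefSeq windows were matched for 4 of the 8 members, and those of Cish and Socs4 held neither motif. The Cish window lies inside the gene, in the first exon and UTR of Cish-201, so it does not cover the sequence before that transcript. The Socs4 window overlaps exons and UTRs of the neighbouring gene Wdhd1. A match describes letters in the window and not a site in use.

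Counts per sample added up to between 23111689 and 23454552 in 5 libraries and to 3944803 in WT replicate 3. Levels are given as CPM, the gene-level estimated counts scaled to a common library size that is adjusted by TMM. Cul5 was 64.4, 69.3 and 65.0 CPM in WT replicates 1 to 3 and 10.6, 14.2 and 13.1 CPM in Cul5 cKO replicates 1 to 3, which fits the labels. CD4 T cell markers summed to 1652 to 1868 CPM in the WT libraries, and to 1519 to 1668 CPM in the Cul5 cKO libraries. Among them Cd28 was 88.2, 120 and 125 CPM in WT replicates 1 to 3 and 46.4, 56.3 and 45.0 CPM in Cul5 cKO replicates 1 to 3. Cd4 overlapped, with 452 to 470 CPM in WT and 440 to 459 CPM in Cul5 cKO. B cell markers summed to 15.1 to 19.2 CPM in the WT libraries and to 6.47 to 48.0 CPM in the Cul5 cKO libraries. Myeloid markers summed to 4.01 to 8.13 and 2.56 to 13.2 CPM. CD8 T cell markers summed to 5.76 to 6.53 and 4.30 to 11.6 CPM. Natural killer cell markers summed to 4.44 to 9.91 and 6.12 to 13.1 CPM. Of these, Ncr1 had no count in any sample and Eomes ranged from 4.01 to 13.0 CPM. The part of such cells in the values below was not tested.

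In the fit that takes no account of replicate numbers, no member of the family passed the test between Cul5 cKO and WT. At an adjusted p under 0.05 (edgeR quasi-likelihood test, Benjamini-Hochberg), 0 of the 7 tested members were called, against 133 of 12925 genes (1.03%). At an unadjusted p under 0.05, 3 members were higher in Cul5 cKO (Socs1, Socs2 and Socs3) and 0 were lower, while 10.9% of all tested genes met this rule in the same direction. In 4 members (Cish and the same 3) every Cul5 cKO sample lay above every WT sample, which held for 14% of all tested genes. DESeq2 also called 0 members, against 693 of 12925 genes. The median log2 fold change was 0.12 over the 7 members and -0.01 over all tested genes. In bulk RNA, fewer cells expressing a gene and less RNA per cell cannot be told apart.

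Cish encodes CIS, an inhibitor of STAT5 signalling that is strongly induced by IL-2. It lies on chromosome 9 at positions 107296026 to 107302784 of GRCm38. Its level was 637, 640 and 612 CPM in WT replicates 1 to 3 and 661, 714 and 675 CPM in Cul5 cKO replicates 1 to 3. The groups did not overlap, but the lowest Cul5 cKO sample lay close to the highest WT sample. The means were 630 ± 15.0 CPM in WT, against 683 ± 27.7 CPM in Cul5 cKO (SD, n = 3 each). The log2 fold change was 0.12 (SE 0.06, 95% interval -0.01 to 0.25), with an adjusted p of 0.277 in the edgeR quasi-likelihood test. On the linear scale the interval ran from 0.992-fold to 1.19-fold, for the counts of all Cish transcripts together.

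The direction of Cish differed between scales, and its counts were divided among several transcripts. The transcript Cish-201, which encodes the protein, took 43.1%, 55.2% and 42.3% of the gene's counts in WT replicates 1 to 3 and 45.9%, 57.9% and 59.8% in Cul5 cKO replicates 1 to 3. Cish-202, annotated as a processed transcript without a coding sequence, took 49.96%, 35.2% and 42.9% in WT and 45.3%, 33.7% and 29.8% in Cul5 cKO. The groups overlapped for both transcripts, with two-sided exact permutation p of 0.2 and 0.4, where 0.1 is the smallest that 3 samples against 3 allow.

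In TPM, which divides counts by transcript length, Cish was 267, 298 and 364 in WT replicates 1 to 3 and 283, 323 and 301 in Cul5 cKO replicates 1 to 3, and the groups overlapped. The short transcripts Cish-203 and Cish-205, of 411 and 371 bases, held 43.5 and 84.4 TPM in WT replicate 3, on 35.7 and 61.2 counts. In the other 5 samples Cish-203 was at 0 and Cish-205 between 1.45 and 6.96 TPM. With limma on log2(TPM + 1) the log2 fold change of Cish was -0.03, and on the authors' gene-level log2 CPM it was -0.01. The protein-coding transcripts of Cish alone gave 0.29 (adjusted p = 0.273, edgeR quasi-likelihood test), a choice made after the values had been seen. The pseudogene Gm17040 lies antisense to Cish and overlaps it, and it held between 3.02 and 35 counts per sample, against 2420 to 16299 for Cish.

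**Figure D1:**
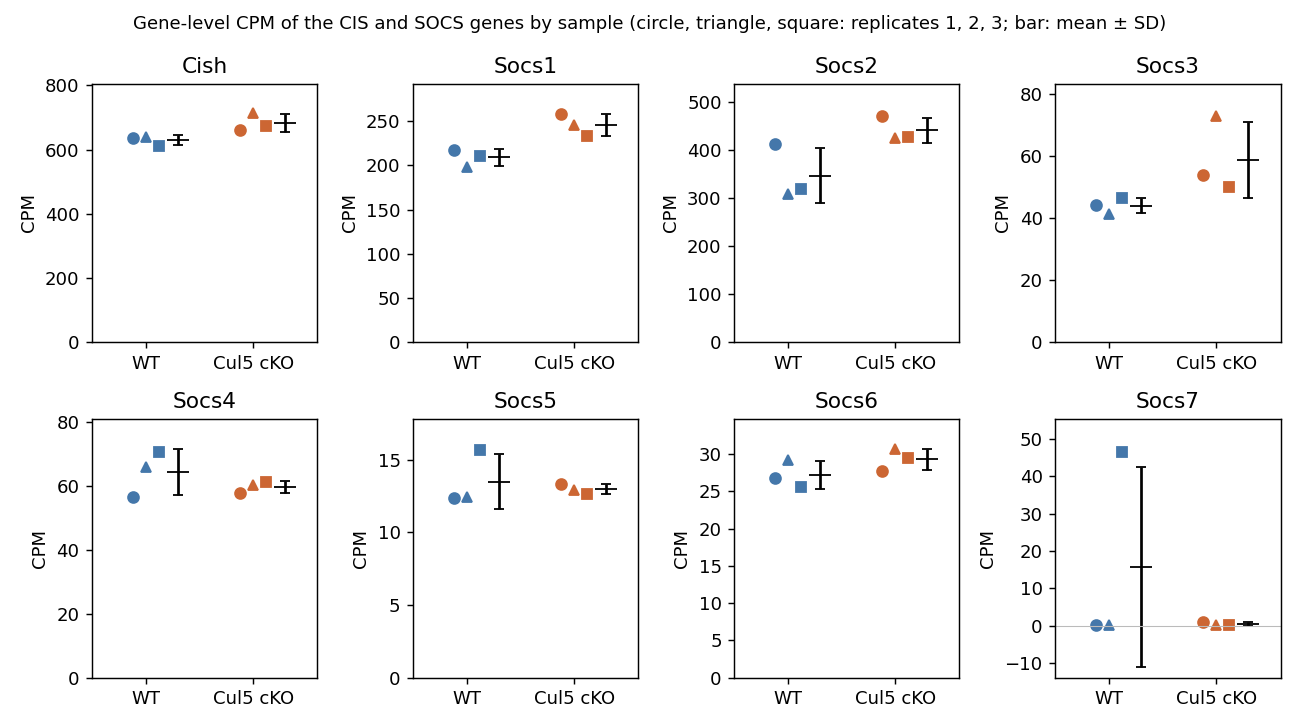
CPM of each member (vertical axes, linear, from 0 or below where an error bar extends there) in the 3 WT samples (blue) and the 3 Cul5 cKO samples (orange), with the mean and SD beside each group. The groups do not overlap for Cish, Socs1, Socs2 and Socs3, and for Socs7 only WT replicate 3 lies far from 0.

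Socs1 encodes an inhibitor that binds JAK kinases directly and restrains interferon-γ and IL-4 signalling. It lies on chromosome 16 at positions 10782240 to 10785536. Its level was 218, 199 and 210 CPM in WT replicates 1 to 3 and 258, 246 and 233 CPM in Cul5 cKO replicates 1 to 3. All Cul5 cKO samples were above all WT samples, with means of 245.8 ± 12.4 CPM against 209 ± 9.68 CPM (SD, n = 3 each). The log2 fold change was 0.23 (SE 0.07, 95% interval 0.08 to 0.39), with an adjusted p of 0.123 (edgeR quasi-likelihood test). Both annotated transcripts encode protein, and Socs1-201 took 69.3 ± 3.87% of the counts in WT and 68.5 ± 4.31% in Cul5 cKO (SD, n = 3 each).

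Socs2 encodes a regulator of growth hormone and STAT5 signalling. It lies on chromosome 10 at positions 95385362 to 95417180. Its level was 412, 308 and 318 CPM in WT replicates 1 to 3 and 471, 425 and 426 CPM in Cul5 cKO replicates 1 to 3. The groups did not overlap, and WT replicate 1 stood above the other WT samples and near the lower Cul5 cKO samples. The means were 346 ± 57.3 CPM in WT, against 440.4 ± 26.2 CPM in Cul5 cKO (SD, n = 3 each). The log2 fold change was 0.34 (SE 0.12, 95% interval 0.07 to 0.62), with an adjusted p of 0.162 (edgeR quasi-likelihood test). Without WT replicate 1 it was 0.49, with an adjusted p of 0.0339 in the same test. Without any other single sample it lay between 0.27 and 0.38, with adjusted p from 0.242 to 0.403 in the same test. In replicates 2 and 3 alone it was 0.44, with an adjusted p of 0.0169 in the edgeR fit.

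The protein-coding transcript Socs2-201 took most of the Socs2 counts. Its share was 81.4%, 84.1% and 76.5% in WT replicates 1 to 3 and 85.5%, 85.8% and 85.7% in Cul5 cKO replicates 1 to 3. The Cul5 cKO samples lay above all WT samples and within a narrow range (two-sided exact permutation p = 0.1, the smallest possible). The lowest share was in WT replicate 3, the library of lowest depth. Socs5-201 also parted by group (two-sided exact permutation p = 0.1). It took 90.9%, 92.1% and 100% of the Socs5 counts in WT and 89.9%, 88.9% and 86.9% in Cul5 cKO. The non-coding Socs5-202 lay higher in Cul5 cKO, on at most 12.2 counts per sample. How many transcripts of all genes part by group was not counted. The pseudogenes Gm9847 and Gm8000, which share near-identical stretches with Socs2, had 0 counts in every sample.

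Socs3 encodes an inhibitor of receptors that signal through gp130 and STAT3. It lies on chromosome 11 at positions 117966079 to 117970047. Its level was 44.2, 41.4 and 46.3 CPM in WT replicates 1 to 3 and 53.7, 72.8 and 49.9 CPM in Cul5 cKO replicates 1 to 3. Cul5 cKO replicate 2 stood above the other Cul5 cKO samples, and the lowest Cul5 cKO sample was near the highest WT sample. The means were 44.0 ± 2.46 CPM in WT, against 58.8 ± 12.3 CPM in Cul5 cKO (SD, n = 3 each). The log2 fold change of 0.43 (SE 0.14, 95% interval 0.09 to 0.76) had an adjusted p of 0.162 (edgeR quasi-likelihood test). Without Cul5 cKO replicate 2 it was 0.25, with an adjusted p of 0.262 in the same test.

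**Figure D2:**
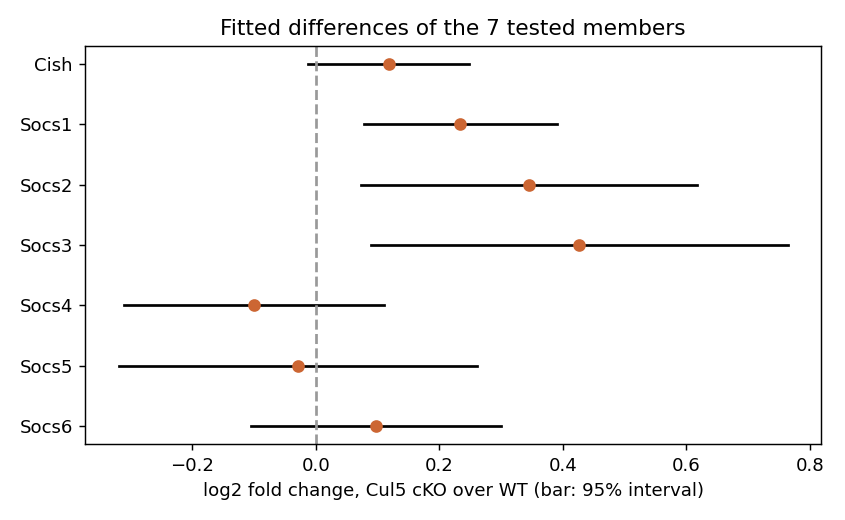
Log2 fold change of Cul5 cKO over WT for the 7 tested members (points) with 95% intervals (bars) from the edgeR quasi-likelihood fit. The intervals of Socs1, Socs2 and Socs3 lie above 0 before adjustment for the number of genes tested, and those of the other 4 members include 0.

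Socs4 and Socs5 form a pair with long N-terminal regions and have been tied to signalling by the epidermal growth factor receptor. Socs4 was 56.6, 66.1 and 70.6 CPM in WT replicates 1 to 3 and 57.7, 60.3 and 61.1 CPM in Cul5 cKO replicates 1 to 3. Socs5 was 12.3, 12.5 and 15.7 CPM in WT and 13.3, 12.9 and 12.7 CPM in Cul5 cKO. The groups overlapped for both genes, and the highest value of each was in WT replicate 3. The log2 fold change of Socs4 was -0.10 (95% interval -0.31 to 0.11), with an adjusted p of 0.563 in the edgeR fit. It was -0.19 without WT replicate 1 and -0.039 without WT replicate 3. That of Socs5 was -0.03 (95% interval -0.32 to 0.26), with an adjusted p of 0.923 in the edgeR fit, and it was 0.07 without WT replicate 3. In TPM, Socs5 lay between 4.56 and 5.16 in WT and between 5.56 and 5.68 in Cul5 cKO, so its direction depended on the scale.

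Socs6 and Socs7 form another pair, known for binding insulin receptor substrates and the receptor tyrosine kinase Kit among others. Socs6 was 26.9, 29.2 and 25.6 CPM in WT replicates 1 to 3 and 27.8, 30.6 and 29.5 CPM in Cul5 cKO replicates 1 to 3, and the groups overlapped. Its log2 fold change was 0.10 (95% interval -0.10 to 0.30), with an adjusted p of 0.555 in the edgeR fit, and -0.06 with limma on log2(TPM + 1). It was 0.16 without WT replicate 2 and 0.063 without WT replicate 3. Its counts were divided among the protein-coding transcripts Socs6-201, Socs6-202 and Socs6-203, with 36.4%, 19.9% and 38.6% on average over the 6 samples.

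Socs7 was near the limit of detection in all samples but one. Its estimated counts were 6.22, 6.68 and 183.6 in WT replicates 1 to 3 and 25.02, 6.46 and 2.92 in Cul5 cKO replicates 1 to 3. WT replicate 3, the library with the fewest counts, held the highest number, which is 46.6 CPM against 0.26 and 0.30 CPM in the other WT samples. The counts of that sample were all on the protein-coding Socs7-201, which held 15.6 counts in Cul5 cKO replicate 1 and under 1 count in each of the other 4 samples, where the non-coding Socs7-202 held the rest. In WT replicate 3, 67 of 116640 transcripts had over 100 counts while each other sample had under 30, limits set after the values were seen. The same count was not made for the other samples. Socs7 did not pass the filter on low counts. Without the filter its log2 fold change was -4.80 (adjusted p = 0.213, edgeR quasi-likelihood test), a value that WT replicate 3 alone decides.

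The order of the members was set on TPM, the scale that divides by length. Over the 6 samples the mean was 399 TPM for Socs2, 306 for Cish, 118 for Socs1, 39.0 for Socs3, 14.6 for Socs6, 12.6 for Socs4, 5.27 for Socs5 and 2.54 for Socs7. The ranges over samples stood apart between Cish and Socs1, Socs1 and Socs3, Socs3 and Socs6, and Socs4 and Socs5. They overlapped for Socs2 and Cish, for Socs6 and Socs4, and for Socs5 and Socs7, and each of these orders was kept in 5 of 6 samples. In TPM of protein-coding transcripts alone, a scale chosen after the values were seen, Socs2 (267 to 395) and Cish (164 to 244) stood apart. The overlap of Socs5 and Socs7 rests on WT replicate 3, where Socs7 was 8.78 TPM against at most 1.99 in the other samples. Socs2 exceeded Cish in 5 of 6 samples, the exception being WT replicate 3. The overlap of Socs2 and Cish rests on that sample, where Cish was 364 TPM against at most 323 in the others. Socs2 was at least 338 TPM in every sample. By CPM per kilobase of effective length Socs5 and Socs7 exchanged the last places, and the other members kept theirs.

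Together the 8 genes summed to 849, 819 and 890 TPM in WT replicates 1 to 3 and 962, 963 and 901 TPM in Cul5 cKO replicates 1 to 3. The groups lay apart by a small margin. Socs2 held 42.7 ± 4.26% of the family's TPM in WT and 46.1 ± 2.70% in Cul5 cKO, and Cish held 36.3 ± 4.74% and 32.1 ± 2.32% (SD, n = 3 each). The share of Cish was highest in WT replicate 3, at 41.0%. The family's TPM was 37.4 ± 4.39 times that of Cul5 in WT and 182 ± 17.0 times in Cul5 cKO (SD, n = 3 each), a ratio of mRNA levels whose denominator fell.

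**Figure D3:**
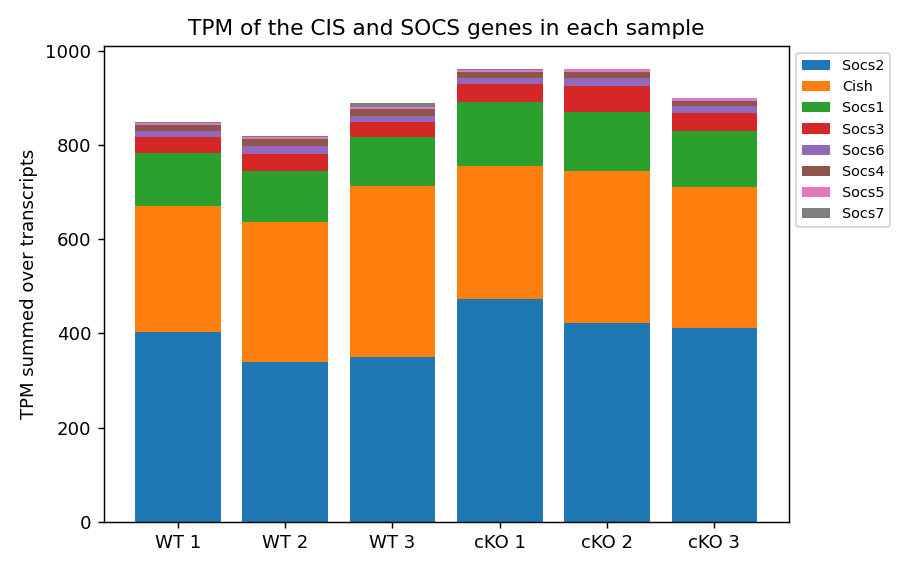
TPM of the 8 genes stacked in each sample (vertical axis, linear, from 0), with colours for the genes in order of mean TPM. Socs2, Cish and Socs1 make up most of each bar, and Socs4 to Socs7 form a thin layer at the top.

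A list of ligase genes held Cul5, Rnf7, Elob, Eloc, Ube2f, Nedd8, Arih2, Cand1, Dcun1d1, Cul2 and Rbx1. It is wider than the Cullin 5 ligase, as Cul2 encodes a different cullin. Of these 11 genes, all tested, only Cul5, the gene deleted by design, passed the test. It was lower, with a log2 fold change of -2.39 (adjusted p = 9.9e-04, edgeR quasi-likelihood test). In this list 0 genes were called higher, and the median was 0.05. Elob, which encodes elongin B, was 115 ± 10.4 CPM in WT, against 123 ± 7.93 CPM in Cul5 cKO, and Nedd8, the modifier that activates cullins, was 79.5 ± 7.54 and 88.6 ± 5.75 CPM (SD, n = 3 each). Their log2 fold changes were 0.09 and 0.15.

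Among the receptors, kinases and STAT factors that the family restrains, 26 of 27 genes were tested. Of these, 1 was called higher and 0 lower, against 79 and 54 of 12925 genes, and the list median was -0.13. At an unadjusted p under 0.05, 2 were higher and 5 lower, against 10.9% and 10.4% of all tested genes. DESeq2 called 2 higher (Il12rb1 and Jak3) and 3 lower (Ifnar1, Il9r and Stat4), against 693 of all 12925 genes in either direction. The gene called by edgeR was Il12rb1, a subunit of the IL-12 and IL-23 receptors. It was 29.0, 27.9 and 27.3 CPM in WT replicates 1 to 3 and 45.1, 37.2 and 45.9 CPM in Cul5 cKO replicates 1 to 3, with a log2 fold change of 0.60 (SE 0.10) and an adjusted p of 0.0435 in the edgeR fit. The groups stood apart, and the call was lost when single samples other than Cul5 cKO replicate 2 were left out. Il2ra, the IL-2 receptor α chain, was 1470 ± 107 CPM in WT, against 1680 ± 159 CPM in Cul5 cKO, and Il2rb was 778 ± 10.2 and 811 ± 75.9 CPM (SD, n = 3 each), with log2 fold changes of 0.19 and 0.06.

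Of 11 other inhibitors of JAK and STAT signalling, 0 were called by the edgeR quasi-likelihood test and 2 had an unadjusted p under 0.05 (1 higher, 1 lower). DESeq2 called 1, Pias1, as lower, against 693 of all 12925 genes in either direction. An unadjusted p under 0.05 in either direction was found for 21.3% of all tested genes, so the share of this list was near the background. The list's median was -0.01. The phosphatase gene Ptprc was 712 ± 146 CPM in WT, against 629 ± 129 CPM in Cul5 cKO, and Ptpn1 was 366 ± 14.7 and 337 ± 4.52 CPM (SD, n = 3 each).

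The genes whose profile over the 6 samples was nearest to each member were found by the root mean square difference of centred log2(CPM + 0.5), among genes of at least 10 CPM. For Cish these were Nptn, Mcrs1 and Jpt2 (differences of 0.02 each), and for Socs1 they were Zfp59, Lamp1 and Gsr (0.02 to 0.03). For Socs2 they were Higd1a, Mrm3 and Pdcd2 (0.03 to 0.05), and for Socs3 they were F2r, Fndc10 and Cdk6 (0.08 to 0.11). For Socs4 they were Casc3, Ap4e1 and Rfk, for Socs5 Vti1a, Akr7a5 and Prpf39, and for Socs6 Nrp1, Cox11 and Ap1s2. These are descriptions over 6 samples, with no test.

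**Figure D4:**
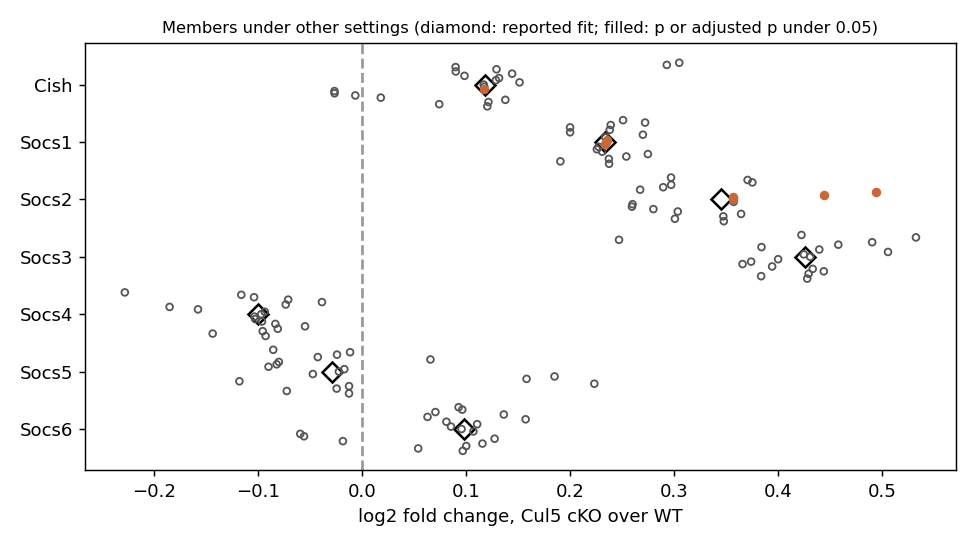
Log2 fold change of Cul5 cKO over WT (horizontal axis) for the 7 tested members under each other setting (circles, filled where the p or adjusted p was under 0.05) and as reported (open diamonds). Socs1, Socs2 and Socs3 stay above 0 and Socs4 below 0 in all of them, while Cish, Socs5 and Socs6 have values on both sides of 0.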

How the data were processed

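Poly-A RNA of 3 WT and 3 Cul5 cKO samples was sequenced in single-end reads. The authors ran kallisto (0.46.2 in the submitters' processing notes) against the Ensembl transcriptome of GRCm38 and deposited estimated counts, not normalized, and TPM per transcript. They also deposited a gene-level table of log2 CPM normalized by TMM in edgeR 3.34.0. Its columns of fold change and p-value were not used. Transcripts were summed to genes of GENCODE, which matched 97.7% of them, and the sums were rounded and fitted in R 4.3.3 with edgeR 4.0.16 (default expression filter, TMM, quasi-likelihood test, Benjamini-Hochberg adjustment over 12925 genes). DESeq2 1.42.0, limma 3.58.1, Student's t-test on log2 CPM, other filters, other scales and samples left out were alternatives. Exact permutation tests were two-sided (scipy 1.17.1). Shared sequence was searched at 95% identity over at least 150 bases. A floor of 3 counts was 0.128 to 0.133 CPM, and 0.759 CPM in WT replicate 3. The fit was tested on simulated data. Named genes are the members, Cul5, each called gene of 3 pathway lists and the 2 genes of highest TPM in each list, with transcripts holding at least 10% of a gene's counts. The transcripts Cish-203 and Cish-205, and the genes outside the rule, were named after their values were seen. The members and lists were chosen with earlier results of these data known.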

Additional observations from a re-analysis of the deposited data

How the results depend on the processing

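Alternatives moved the number of genes called, and they moved the number of members called in 5 settings and left it the same in 14. The members are few, so the stability of these counts cannot be compared. The 133 genes called became 693 with DESeq2, 228 with no filter beyond 1 count, 60 with counts scaled from TPM, 42 with limma on the authors' log2 CPM, 27 on the log2(TPM + 1) scale and 30 on the log2(TPM + 0.1) scale (limma), 2362 under the study's unadjusted p, 1688 with replicate 1 as a term and 1153 in replicates 2 and 3 alone. Leaving out single samples gave 2 to 316 genes, with 2 without WT replicate 2 or WT replicate 3 and 3 without Cul5 cKO replicate 3.

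Of the members, 2 passed under the study's unadjusted p (Cish 0.12 and Socs1 0.23), 2 with replicate 1 as a term (Socs1 0.24 and Socs2 0.36) and 1, Socs2, in replicates 2 and 3 alone (0.44). Leaving out single samples gave 0 to 1 members, the 1 being Socs2 without WT replicate 1, where its value ranged from 0.27 to 0.49. Cish was reversed to -0.0066 with limma on the authors' log2 CPM and to -0.027 on both TPM scales. Socs5 was reversed to 0.22 with counts scaled from TPM, to 0.16 on log2(TPM + 1), to 0.19 on log2(TPM + 0.1) and, with single samples left out, ranged from -0.082 to 0.066, the last without WT replicate 3. Socs6 was reversed to -0.019, -0.056 and -0.060 with counts scaled from TPM and on the log2(TPM + 1) and log2(TPM + 0.1) scales. The cause was not tested.

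The receptor, JAK and STAT list had 5 genes called with DESeq2 (2 higher, 3 lower), 2 with no filter and 7 under the unadjusted t-test. It had 9 with replicate 1 as a term, 6 in replicates 2 and 3 alone and 0 to 1 with single samples left out. With counts scaled from TPM, the authors' log2 CPM, either TPM scale or thinning to the shallowest library, 0 were called. The other inhibitors had 1 called with DESeq2, 4 under the unadjusted t-test and 2 with replicate 1 as a term.

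With the replicate number as a block, 848 genes were called, among them 1 member (Socs2, 0.36, adjusted p = 0.0395 in edgeR), 4 of the receptor list and 1 other inhibitor. The deviations of samples with the same number correlated at 0.37, 0.21 and 0.02. For WT replicates 1 and 2, but not for WT replicate 3, the Cul5 cKO sample of the same number correlated best. The reported fit does not pair the samples, and whether the numbers mark pairs was not tested.

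As a share of TPM in place of counts, Socs2-201 fell from 83.2% to 55.1% of its gene and Cish-202 from 39.5% to 25.9%. On the same change of scale Socs3-201 fell from 97.6% to 74.5%, Socs5-201 from 91.5% to 71.1% and Socs6-201 from 36.4% to 16.6%. WT replicate 3 has the lowest depth, which limits the precision of genes at low counts there. The source of its high Socs7 count was not tested. The samples were too few for a permutation p below 0.1.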
